A study of Mus musculus with 56 samples.

Results

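The transferrin receptor gene Tfrc and 6 partner genes of iron handling, Slc40a1, Slc11a2, Ftl1, Ireb2, Aco1 and Hmox1, were followed around the day in mouse heart. They are 7 of the 22864 genes listed. Tfrc was chosen by its measured daily rhythm, which had been seen in these same libraries to turn over when feeding was moved, so its rhythm, its shift and its difference between regimens are given as a description with no test. The partners were taken by symbol for their known roles, with earlier results of these data known. The question was which of them follow Tfrc. The animals were C57BL/6J females of 9 weeks, an inbred strain, and the labels name no genetic change or drug in any group. All were kept on a cycle of 12 h light and 12 h dark with chow, freely at first, and then for 7 days had food by day only (DRF, daytime-restricted feeding) or by night only (NRF, nighttime-restricted feeding). NRF served as the control. Hearts were collected every 4 h at 7 zeitgeber times (ZT), where ZT0 is lights on and ZT24 the same clock time a day later, and each regimen had 4 polyA RNA libraries per time, 56 in 14 groups. Nothing in the labels ties a library to one animal or to a pool, so p-values measure the spread between these libraries, which may in part be technical.

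Levels are given as TPM, reads per base of exon scaled to the same total in every library, which allows levels of different genes to be compared. They were recomputed from whole reads recovered from the deposited values, 29703332 to 53754535 reads per library with a median of 37930982. The least covered value of a member was 398 reads, of Hmox1. The libraries read as heart. The summed level of 8 cardiomyocyte markers was 28982 to 42763 TPM, and none of the 8 was at 0 throughout. In whole tissue, fewer cells of a type and less RNA per cell cannot be told apart.

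Cells take up iron when transferrin, the iron carrier of blood, binds the transferrin receptor at the surface and is drawn into endosomes, where iron is released, reduced and passed to the cytosol by the transporter DMT1, the product of Slc11a2. Iron leaves through ferroportin, the product of Slc40a1 and the only known iron exporter of mammalian cells, and is stored in ferritin, whose light and heavy chains come from Ftl1 and Fth1. Heme oxygenase 1, the product of Hmox1, frees iron from heme. The iron regulatory proteins IRP1 (Aco1) and IRP2 (Ireb2) sense cytosolic iron and bind hairpins called iron-responsive elements (IREs) when iron is low: bound to the 3′ untranslated region (UTR) of Tfrc they keep the message from decay, and bound to the 5′ UTR of ferritin or ferroportin messages they block translation. Heart muscle depends on this uptake route for its mitochondria.

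The hairpins that join these genes are shown first, because they are what Tfrc and some of its partners share in sequence. The search was not used to choose the members, but such hairpins are part of what is known of them, so the matches are a description. The UTRs of GENCODE M21 transcripts (build GRCm38, which is mm10) were searched on the transcript strand for the loop CAGTGN closed by an upper stem of 5 pairs (G-T pairs allowed), an unpaired C before it, and a lower stem with at least 4 of 5 pairs. Each sequence is written 5′ to 3′ as DNA with the 6 loop bases in capitals.
Tfrc 3′ UTR, first hairpin, chr16:32631220-32631246, plus strand: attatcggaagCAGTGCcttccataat
Tfrc 3′ UTR, second hairpin, chr16:32631599-32631625, plus strand: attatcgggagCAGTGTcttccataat
Tfrc 3′ UTR, next hairpin, chr16:32631664-32631690, plus strand: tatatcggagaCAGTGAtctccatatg
Tfrc 3′ UTR, last hairpin, chr16:32631711-32631737, plus strand: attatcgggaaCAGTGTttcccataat
Slc40a1 5′ UTR, chr1:45925466-45925492, minus strand: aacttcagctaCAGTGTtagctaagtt
Ftl1 5′ UTR, chr7:45459780-45459806, minus strand: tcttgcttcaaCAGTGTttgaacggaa
Fth1 5′ UTR, chr19:9982733-9982759, plus strand: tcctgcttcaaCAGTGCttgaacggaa
Slc11a2 3′ UTR, chr15:100395153-100395180, minus strand: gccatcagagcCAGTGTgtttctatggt

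Tfrc held 4 such hairpins in its 3′ UTR, and Slc40a1 and Ftl1 held 1 each in the 5′ UTR. That of Slc11a2 was found only when 1 unpaired base was allowed in the 3′ arm of the upper stem. Among 12089 tested genes with a coding transcript, 14 (0.116%) held the regular form in either UTR and 22 (0.182%) the form with the extra base. No match was found in Ireb2, Aco1 or Hmox1, which says only that these letters are not in the UTRs searched. Reads were summed over all transcripts of a gene, so the Slc11a2 transcripts with and without the hairpin were not separated.

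Tfrc (ENSMUSG00000022797, chromosome 16, 32608920 to 32632794, plus strand) had a level of 31.6 TPM on average and ranged from 8.79 to 81.8 TPM over the 56 libraries. At ZT0 the NRF libraries had 47.2, 42.8, 81.8 and 43.3 TPM and the DRF libraries 12.7, 14.4, 17.1 and 17.2 TPM. At ZT24, a day later by the clock, the values were 52.2, 63.6, 61.5 and 52.7 TPM under NRF and 8.79, 25.1, 13.7 and 17.2 TPM under DRF. Every NRF library was above every DRF library at the start and at the end of the light and dark cycle. At ZT12 the order was the reverse, with 13.7, 17.6, 17.9 and 17.0 TPM under NRF and 52.4, 45.4, 47.8 and 57.0 TPM under DRF. At ZT16 the libraries still kept that order, 18.5, 19.8, 21.1 and 20.6 TPM against 39.5, 27.7, 47.0 and 36.1 TPM. At ZT20 NRF was the higher again, 32.5, 35.1, 30.9 and 32.3 TPM against 22.1, 9.79, 18.8 and 18.2 TPM. The regimens thus crossed between ZT4 and ZT12 and between ZT16 and ZT20. At ZT4 the values were wide, 38.6, 60.2, 18.7 and 50.6 TPM under NRF and 31.2, 11.9, 21.2 and 16.7 TPM under DRF, and at ZT8 they were 22.0, 35.8, 41.0 and 23.7 TPM and 27.8, 29.6, 32.7 and 37.1 TPM. The groups overlapped at these last 2 times and at none of the other 5.

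On average Tfrc was 3.51-fold lower under DRF at ZT0, 3.05-fold higher at ZT12 and 3.55-fold lower at ZT24. The group mean rose 3.47-fold from its lowest point at ZT12 to its highest at ZT24 under NRF, and 3.31-fold from ZT0 to ZT12 under DRF. A 24-h cosine fitted to log2(TPM + 1) peaked at ZT1.10 ± 0.471 h (SE, n = 28) under NRF and at ZT12.03 ± 0.478 h under DRF, a shift of 10.9 ± 0.671 h. By the class limits of the study, a shift of 8 to 12 h is phase inverted and one of 0 to 4 h phase locked. The study classed only genes that oscillated under both regimens. Here the limits are applied to the fitted shift of any gene with a different rhythm. The amplitude, the log2 distance from mean to peak, was 0.79 ± 0.088 under NRF and 0.83 ± 0.091 under DRF, a difference of 0.037. The level at ZT24 minus that at ZT0 of the same regimen was 0.14 on the log2 scale under NRF (95% interval -0.38 to 0.67) and -0.00157 under DRF (-0.52 to 0.52). Single NRF libraries carried part of the spread: replicate 3 at ZT0 had 81.8 TPM while the other 3 had 42.8 to 47.2 TPM.

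**Figure D1:**
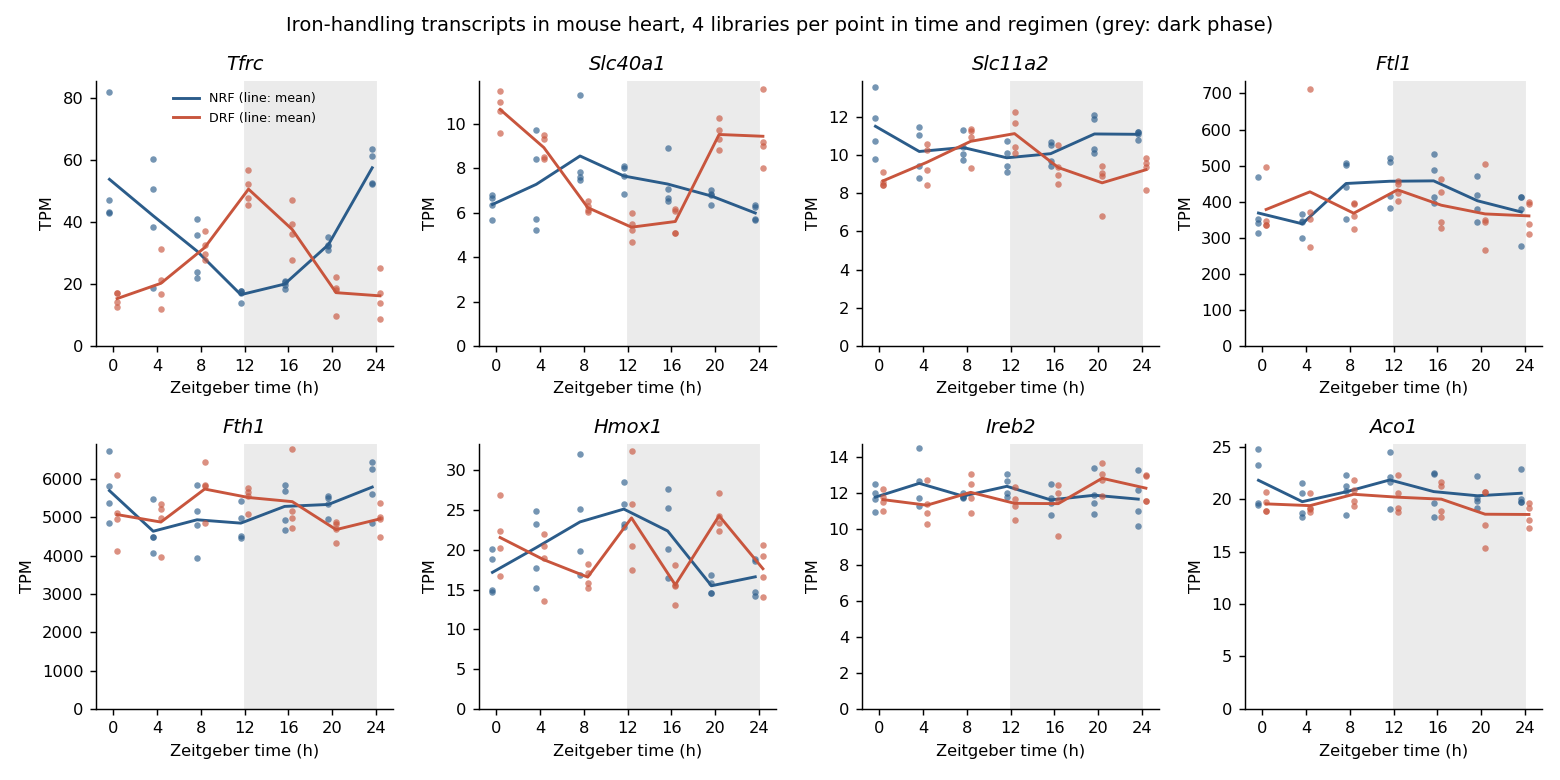
TPM of Tfrc, its 6 partners and Fth1 against zeitgeber time (h), each point 1 library, lines joining group means (4 libraries), blue for NRF and red for DRF, with the dark phase in grey. Tfrc is high at ZT0 and ZT24 under NRF and at ZT12 under DRF, Slc40a1 runs the other way, and Ireb2 and Aco1 stay within 9.61 to 14.5 and 15.4 to 24.8 TPM.

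Slc40a1, the ferroportin gene (ENSMUSG00000025993, chromosome 1, 45908068 to 45926523, minus strand), was the least abundant member, with 7.55 TPM on average, and showed the clearest response among the partners, with a course opposite to that of Tfrc. At ZT0 it had 6.79, 5.68, 6.69 and 6.35 TPM under NRF and 11.5, 10.99, 9.58 and 10.6 TPM under DRF. At ZT12 the values were 8.03, 7.67, 8.11 and 6.83 TPM and 4.71, 5.50, 5.21 and 6.003 TPM, in the same order. The DRF libraries were thus all higher at ZT0 and all lower at ZT12. At ZT4 they were 5.70, 5.24, 9.75 and 8.44 TPM under NRF and 9.50, 9.32, 8.41 and 8.53 TPM under DRF, and at ZT8 7.61, 7.85, 7.46 and 11.3 TPM and 6.52, 6.11, 6.02 and 6.30 TPM. At ZT16 the NRF values were 8.90, 7.08, 6.66 and 6.55 TPM and the DRF values 6.19, 6.06, 5.09 and 5.11 TPM. Only ZT4 gave groups that overlapped for this gene. At ZT20 the NRF libraries had 7.03, 6.36, 6.81 and 6.83 TPM and the DRF libraries 9.32, 10.3, 8.82 and 9.72 TPM, and at ZT24 5.72, 6.33, 6.26 and 5.66 TPM and 11.6, 8.002, 9.01 and 9.19 TPM.

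DRF exceeded NRF at ZT0 by 0.66 on the log2 scale (95% interval 0.43 to 0.89; limma adjusted p = 8.71e-05). At ZT20 it was higher by 0.44 on the log2 scale (95% interval 0.21 to 0.67; limma adjusted p = 0.00673) and at ZT24 by 0.57 on the log2 scale (95% interval 0.34 to 0.80; limma adjusted p = 0.000984). At ZT12 it was lower, with a difference of -0.45 on the log2 scale (95% interval -0.68 to -0.22; limma adjusted p = 0.0106). The differences at ZT4, ZT8 and ZT16 did not pass, with adjusted p of 0.255, 0.0970 and 0.0694 (limma). Of all 13864 genes tested, 11.4%, 0.447%, 0.389%, 7.69%, 6.94%, 14.8% and 8.92% passed this test at ZT0, ZT4, ZT8, ZT12, ZT16, ZT20 and ZT24. Groups without overlap, found at 6 of the 7 times for Slc40a1, were found in 15.6%, 2.9%, 7.64%, 13.6%, 19.5%, 19.8% and 13.4% of all genes at the same times. The ZT12 call was lost without replicate 1, 2 or 3 of all groups, with adjusted p of 0.0793, 0.0535 and 0.168, and the ZT20 call without replicate 2 (0.0818).

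The ferroportin message was rhythmic under both regimens. Under NRF it peaked at ZT10.3 ± 1.16 h (SE) with an amplitude of 0.17 ± 0.048 (limma F test, adjusted p = 0.0186), and under DRF at ZT0.129 ± 0.348 h with an amplitude of 0.44 ± 0.035 (adjusted p = 2.41e-09). The shift was 10.2 ± 1.21 h, in the inverted class, and the rhythms differed (limma, adjusted p = 3.25e-10). The DRF amplitude was larger by 0.27 (95% interval 0.15 to 0.39). The group mean spanned 1.99-fold between its extremes under DRF and 1.43-fold under NRF. The NRF rhythm was the weaker call, and was lost without replicate 2 (adjusted p = 0.0779), ZT0 (0.0521), ZT8 (0.0888) or ZT24 (0.104), and when time means stood in for the cosine (0.101). With the 4 libraries that stand apart for a member left out, its adjusted p was 0.0545, while that of the difference between regimens was 1.10e-09. Peak to peak, Slc40a1 stood 9.20 ± 1.25 h after Tfrc under NRF and -11.9 ± 0.591 h from it under DRF, where a negative value is earlier, so the pair stayed near opposite phases. These SEs treat the genes as independent although they were read in the same libraries.

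Slc11a2, which encodes the endosomal iron transporter DMT1 (ENSMUSG00000023030, chromosome 15, 100387898 to 100425072, minus strand), moved on the side of Tfrc, with a smaller range of 6.83 to 13.5 TPM. At ZT0 it stood at 11.95, 9.81, 13.5 and 10.7 TPM under NRF and 9.13, 8.58, 8.45 and 8.43 TPM under DRF, and at ZT20 at 11.9, 12.1, 10.3 and 10.1 TPM and 9.03, 6.83, 8.90 and 9.41 TPM. At ZT24 the NRF libraries had 11.1, 11.2, 10.8 and 11.2 TPM and the DRF libraries 8.17, 9.57, 9.36 and 9.82 TPM. All DRF values lay below all NRF values at these 3 times. At ZT12 the groups overlapped, with 10.1, 9.10, 10.8 and 9.45 TPM under NRF and 11.7, 10.1, 10.4 and 12.2 TPM under DRF. At ZT4, ZT8 and ZT16 they overlapped as well, with NRF means of 10.2 ± 1.29, 10.4 ± 0.677 and 10.1 ± 0.625 TPM and DRF means of 9.62 ± 0.993, 10.7 ± 0.952 and 9.34 ± 0.866 TPM (SD, n = 4).

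The difference, DRF minus NRF, was -0.37 on the log2 scale (95% interval -0.54 to -0.19; limma adjusted p = 0.00383) at ZT0. At ZT20 it was -0.35 on the log2 scale (95% interval -0.52 to -0.17; limma adjusted p = 0.00542), and at ZT24 it did not pass (limma adjusted p = 0.0690). Without the NRF library of 13.5 TPM the difference at ZT0 was -0.29 (adjusted p = 0.0415), and without replicate 3 of all groups the call was lost (adjusted p = 0.115). Without replicate 2 of all groups, among them the DRF library of 6.83 TPM, the difference at ZT20 was -0.22 and its call was lost (adjusted p = 0.125). The rhythms of Slc11a2 differed between the regimens (limma, adjusted p = 0.000158), with a shift of 10.6 ± 1.75 h, in the inverted class. Slc11a2 peaked at ZT9.55 ± 0.796 h (SE) under DRF with an amplitude of 0.16 ± 0.033 (adjusted p = 0.00142). Under NRF the amplitude was 0.083 ± 0.030, the fitted peak was at ZT23.0 ± 1.56 h, and the rhythm did not pass (adjusted p = 0.0820). It did pass when libraries were rescaled by the median of gene ratios (each library's ratios to the geometric mean over libraries), with an adjusted p of 0.00586, and with limma-voom on the recovered reads, with an adjusted p of 0.00783. The peak stood -2.12 ± 1.63 h from that of Tfrc under NRF and -2.48 ± 0.929 h under DRF, earlier in each. The amplitude difference of 0.080 had a 95% interval of -0.0078 to 0.17.

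Hmox1, the inducible heme oxygenase (ENSMUSG00000005413, chromosome 8, 75093621 to 75100589, plus strand), had a smooth day under NRF and an uneven one under DRF. Under NRF the means climbed from 17.2 ± 2.74 TPM at ZT0 to 25.1 ± 2.63 TPM at ZT12 and were 15.5 ± 1.10 TPM at ZT20 (SD, n = 4). Under DRF the values at ZT12 were 20.5, 25.8, 17.4 and 32.4 TPM, those at ZT16 were 18.1, 15.5, 15.6 and 13.1 TPM and those at ZT20 were 27.2, 24.3, 23.3 and 22.4 TPM. The DRF course therefore had high points on either side of a low at ZT16. At ZT20 the NRF libraries had 16.9, 14.6, 14.6 and 15.9 TPM, all below the DRF libraries, a difference of 0.62 on the log2 scale (95% interval 0.27 to 0.96; limma adjusted p = 0.0118). Without replicate 1, 2 or 3 of all groups this call was lost, with adjusted p of 0.0553, 0.0978 and 0.0665, and without the DRF library of 27.2 TPM alone the adjusted p was 0.0502. At the other times the groups overlapped and no difference passed, the closest being ZT16 with 15.6 TPM under DRF and 22.4 TPM under NRF on average (adjusted p = 0.0791).

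The NRF rhythm of Hmox1 passed, with a peak at ZT10.5 ± 0.831 h (SE) and an amplitude of 0.31 ± 0.061 (limma, adjusted p = 0.000984). The DRF rhythm did not pass (amplitude 0.087 ± 0.086, adjusted p = 0.684). When the means of the times were compared in place of the cosine, with ZT24 joined to ZT0, the DRF day was not flat (limma, adjusted p = 0.0236). The rhythms differed (adjusted p = 0.0159). The shift of 8.76 ± 3.495 h falls in the inverted class but is poorly determined, since the DRF peak at ZT19.3 ± 3.39 h comes from a cosine that was not called. This call is also the least stable of the 3: it was lost without replicate 2 (adjusted p = 0.0839), replicate 3 (0.131), ZT0 (0.0523), ZT8 (0.0801) or ZT20 (0.154). It was also lost at a threshold of 0.01. Within groups Hmox1 moved with the macrophage markers, with a Pearson r of 0.70 between deviations from the group means over 56 libraries, and with the endothelial (r = 0.63) and fibroblast markers (r = 0.55). With the log2 sums of the erythroid and macrophage markers regressed out within groups, a step that takes no degrees of freedom from the fit, the difference in rhythm had an adjusted p of 5.99e-05.

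The ferritin genes were by far the most abundant of the set. Fth1, the heavy chain gene, averaged 5200.0 TPM and Ftl1, the light chain gene (ENSMUSG00000050708, chromosome 7, 45457944 to 45459884, minus strand), 398 TPM, against 31.6 TPM for Tfrc. Both have many processed pseudogenes, and how reads that fit several places were counted is not given in the sources used here, so their levels are uncertain. Ftl1 means ranged from 339 ± 28.6 TPM at ZT4 to 458 ± 62.9 TPM at ZT16 under NRF (SD, n = 4), with a peak at ZT13.5 ± 1.07 h and an amplitude of 0.21 ± 0.052 (limma, adjusted p = 0.00927). This call was lost without replicate 1, 2 or 4 (adjusted p = 0.0574, 0.0952 and 0.0533) and under the time means (0.0529). Single libraries reached far from their group: at ZT4 the DRF libraries had 275, 712, 351 and 371 TPM, and 712 TPM was the highest of all 56 values. The DRF amplitude was 0.081 ± 0.072 and did not pass (adjusted p = 0.633). No difference between the rhythms was detected (adjusted p = 0.423), and the shift of 2.75 h carried an SE of 3.91 h. The Ftl1 groups overlapped at every ZT. Within groups Ftl1 moved with the erythroid markers (Pearson r = 0.66, 56 libraries) the macrophage markers (r = 0.56) and the fibroblast markers (r = 0.48). With the erythroid and macrophage sums regressed out the difference in rhythm did pass, with a limma adjusted p of 0.000656 and a shift of 6.37 h. That fit called a different rhythm for 5291 of all 13864 genes, against 3834 without it. Fth1, which is not among the members but belongs to the same storage protein, had a different rhythm (adjusted p = 0.0116, shift 10.4 ± 2.11 h), although the cosine passed under neither regimen alone (adjusted p = 0.0762 under NRF and 0.104 under DRF) and the difference did not pass under the time means (adjusted p = 0.0788).

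The genes of the iron sensors were the steady members. Ireb2, for IRP2 (ENSMUSG00000032293, chromosome 9, 54863789 to 54912530, plus strand), kept within 9.61 to 14.5 TPM and Aco1, for IRP1 (ENSMUSG00000028405, chromosome 4, 40143081 to 40198338, plus strand), within 15.4 to 24.8 TPM. Their means over the day differed by no more than 1.13-fold for Ireb2 and 1.11-fold for Aco1 in either regimen. No rhythm was detected for Ireb2 (limma, adjusted p = 0.668 under NRF and 0.530 under DRF) or for Aco1 (0.873 and 0.204), and no difference in rhythm (0.398 and 0.602). The fitted amplitudes were 0.031 ± 0.030 and 0.040 ± 0.030 for Ireb2 and 0.020 ± 0.033 and 0.060 ± 0.028 for Aco1 (NRF and DRF, SE), against the 0.79 ± 0.088 and 0.83 ± 0.091 of Tfrc. Their fitted peak times have no meaning at these amplitudes. The DRF rhythm of Aco1 passed in 1 alternative, the rescaling by the median of gene ratios (adjusted p = 0.0306). The groups of Ireb2 overlapped at every ZT, and those of Aco1 at every ZT but ZT24, where DRF was the lower with 19.2, 17.3, 19.6 and 18.1 TPM against 19.7, 22.8, 19.7 and 19.99 TPM and the difference did not pass (adjusted p = 0.288). The level of a message says nothing of whether the proteins bound RNA, which was not measured. In order of mean level the members ran from Ftl1 and Tfrc through Aco1 (20.2 TPM), Hmox1 (19.9 TPM), Ireb2 (11.9 TPM) and Slc11a2 (10.1 TPM) to Slc40a1, and in this order each neighbour below Ftl1 overlapped the next over the 56 libraries.

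**Figure D2:**
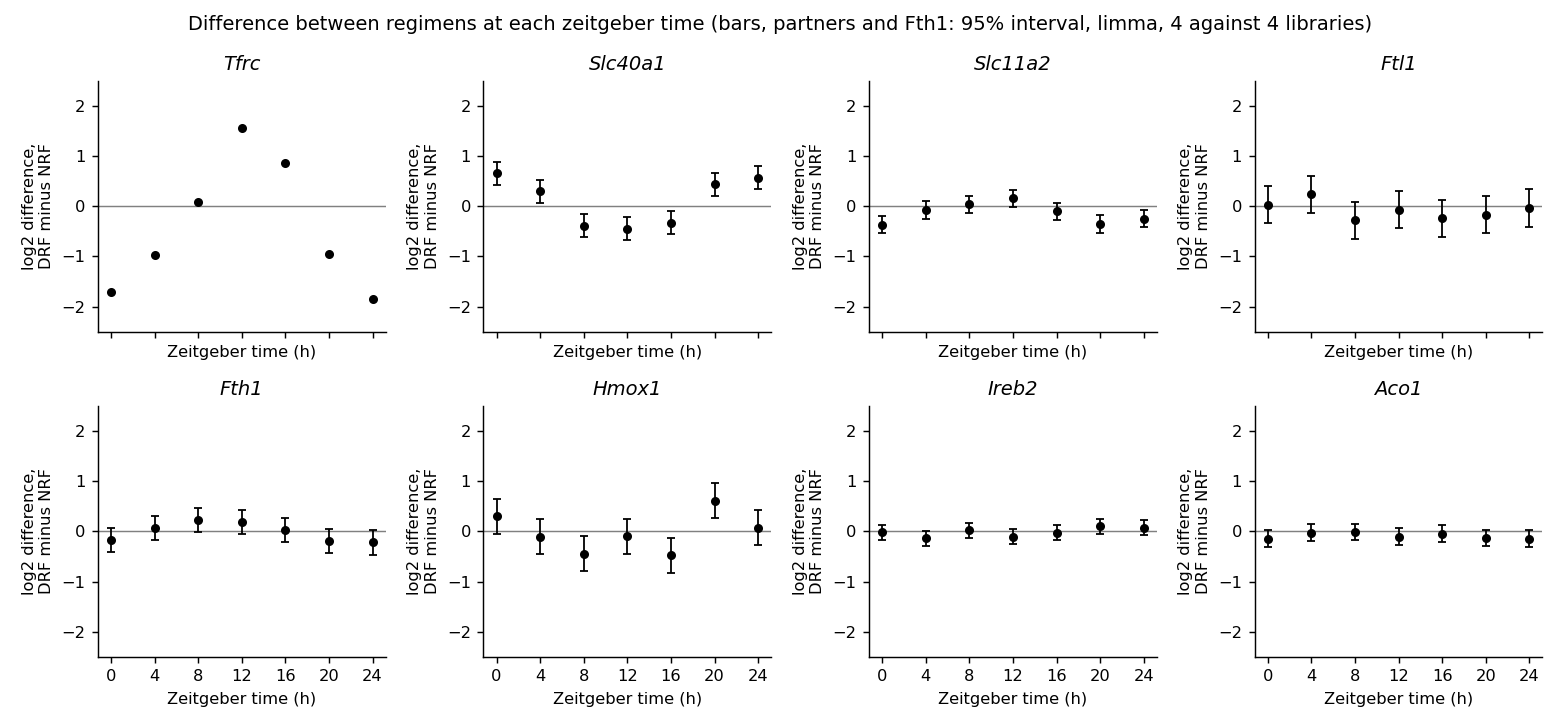
Difference in log2(TPM + 1), DRF minus NRF, against zeitgeber time (h) for the 7 members and Fth1, with points for the estimate from 4 against 4 libraries and, for all but Tfrc, bars for its 95% interval. Tfrc runs from -1.70 at ZT0 to 1.56 at ZT12, Slc40a1 crosses the zero line the other way with 0.66 at ZT0 and -0.45 at ZT12, and the bars of Ireb2 include 0 at every time.

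Counted over the 6 partners, 3 had a different rhythm under DRF and NRF by the clock (Slc40a1, Slc11a2 and Hmox1), where 27.7% of all tested genes did, and all 3 fell in the inverted class, beside 46.1% of all genes with a different rhythm. The 95% interval of the shift reaches outside that class for each of the 3, at -12.6 to -7.79 h for Slc40a1, 7.14 to 13.99 h for Slc11a2 and 1.91 to 15.6 h for Hmox1, where a minus sign is an earlier peak under DRF. Under NRF 3 partners were rhythmic (Slc40a1, Ftl1 and Hmox1), beside 37.4% of all genes, and under DRF 2 were (Slc40a1 and Slc11a2), beside 32.6%. Slc40a1 alone was rhythmic under both regimens, as were 17.8% of all genes, so it is the only partner that the study's own rule would class. With so few members these shares do not set the group apart. In the 20 alternatives run on each gene, the difference passed in all 20 for Slc40a1 (shift 8.80 to 11.8 h) and for Slc11a2 (8.76 to 11.98 h), and in 14 for Hmox1, whose shift ranged from 4.26 to 11.98 h and so left the inverted class in some. Between ZT24 and ZT0 of one regimen, the same clock time a day apart, none of the 6 partners passed (limma adjusted p of 0.549 to 0.993), beside 0.469% of all genes under DRF and 0.0577% under NRF. The smallest unadjusted p of these was 0.123, for Hmox1 under DRF.

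The libraries were then counted from the start of the feeding phase, ZT0 for DRF and ZT12 for NRF, so that DRF at ZT0 stands beside NRF at ZT12. The exact hours of food access are not given in the sources used here, and the light and dark phases were taken as the feeding phases. Tfrc had 15.3 ± 2.20 TPM (DRF) and 16.6 ± 1.93 TPM (NRF) at the start of the feeding phase (SD of 4 libraries). It had 20.2 ± 8.21 TPM (DRF) and 20.003 ± 1.17 TPM (NRF) 4 h later and 31.8 ± 4.07 TPM (DRF) and 32.7 ± 1.72 TPM (NRF) 8 h later. Up to this point the regimens lay within 1 SD of each other. At the end of the feeding phase, 12 h after its start, the level was 50.6 ± 5.13 TPM (DRF) and 57.5 ± 5.88 TPM (NRF), the high point of each. In the fasting phase it had 37.6 ± 7.99 TPM (DRF) and 42.0 ± 17.9 TPM (NRF) at 16 h and 17.2 ± 5.25 TPM (DRF) and 30.6 ± 9.23 TPM (NRF) at 20 h. Tfrc thus rose through feeding and fell in the fast under both regimens, with the widest gap at 20 h, -0.80 on the log2 scale. Light, feeding and the internal clock keep different relations under DRF and NRF, and their parts in this course cannot be told apart here.

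**Figure D3:**
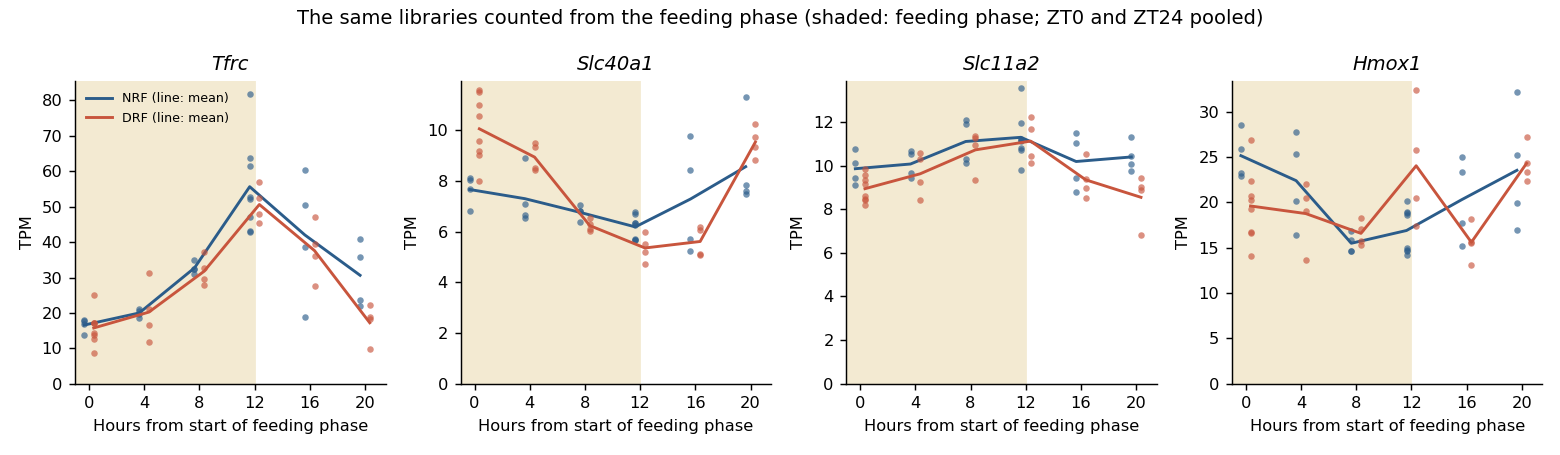
TPM of Tfrc, Slc40a1, Slc11a2 and Hmox1 against hours from the start of the feeding phase (shaded), each point 1 library, lines joining means, blue for NRF and red for DRF, with ZT0 and ZT24 of a regimen pooled. The Tfrc points of both regimens overlap throughout and are highest at 12 h, the means of Slc40a1 span a wider range under DRF than under NRF, and Hmox1 differs in shape.

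The same count gave a test for the partners, whose null is that the DRF cosine is the NRF cosine moved by 12 h. It was rejected for Slc40a1 (limma, adjusted p = 0.000259), whose amplitude differed as given above, and for Ftl1 (adjusted p = 0.0389). In the 20 alternatives and the time means, 21 settings, the Slc40a1 call held in all and the Ftl1 call in 11. That of Ftl1 was lost at a threshold of 0.01, with no filter (adjusted p = 0.0552), without replicate 1 (0.198) or 4 (0.258), without ZT0 (0.0578), ZT12 (0.247), ZT16 (0.106), ZT20 (0.0504) or ZT24 (0.0891), and under the time means (0.146). At the start of the feeding phase ferroportin had 10.7 ± 0.814 TPM (DRF) and 7.66 ± 0.586 TPM (NRF), a difference of 0.43 (95% interval 0.20 to 0.66, adjusted p = 0.0141). DRF at ZT24 is the same feeding hour, and with it in place of ZT0 the DRF level was 9.45 ± 1.52 TPM, the ranges overlapped, and the difference of 0.26 did not pass (adjusted p = 0.120). With ZT0 and ZT24 pooled it was 0.35 (95% interval 0.15 to 0.54, adjusted p = 0.0133), the ranges again overlapped, and 13.1% of all genes passed. With DRF at ZT0 and NRF at ZT24, of all genes 6.24%, 6.51%, 5.58%, 5.2%, 23% and 24.1% passed at 0, 4, 8, 12, 16 and 20 h. At its end the values were 5.35 ± 0.542 TPM (DRF) and 5.99 ± 0.354 TPM (NRF), and this difference did not pass (adjusted p = 0.569), nor with NRF at ZT0 in place of ZT24 (0.230). The null was not rejected for Slc11a2 (adjusted p = 0.254), Hmox1 (0.0880), Aco1 (0.341) or Ireb2 (0.941), which does not show that their rhythms were the same. Of all genes, 41.5% rejected it. Slc11a2 is the partner that differed by the clock under the cosine and under the time means and by neither from the feeding phase (time means, adjusted p = 0.488). Under the cosine, 47.6% of all genes with a different rhythm by the clock were likewise not called from the feeding phase. For Hmox1 the time means did reject the moved course (adjusted p = 0.0124). For Slc11a2 a single time stood apart in this count, 20 h, with 8.54 ± 1.16 TPM (DRF) and 10.4 ± 0.677 TPM (NRF) (adjusted p = 0.0243).

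Over the 14 group means of log2(TPM + 1), Slc11a2 had a Pearson r of 0.80 with Tfrc, the 27th highest among 13863 genes, and Slc40a1 an r of -0.85, the 21st lowest. The other partners had r of 0.44 (Aco1), -0.14 (Ftl1), -0.34 (Ireb2) and -0.42 (Hmox1), and Fth1 had 0.65. The points share libraries and ZT0 and ZT24 are the same phase, so no p is given. Deviations of single libraries from their group means, which take out the course of the day, went the same way for these 2 partners: over 56 libraries the r with Tfrc was 0.60 for Slc11a2 and -0.47 for Slc40a1, against 0.26 for Hmox1, 0.20 for Aco1, 0.049 for Ireb2 and -0.15 for Ftl1. Cardiomyocyte markers moved with both uptake genes in this measure, with an r of 0.54 for Tfrc and 0.66 for Slc11a2, and of -0.24 for Slc40a1, and their part in these values was not tested.

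The gene most like Tfrc over the 14 group means was Alas1, the rate-limiting enzyme of heme synthesis outside red cells (r = 0.92). Under NRF it had 79.0 ± 15.8 TPM at ZT0 and 54.3 ± 1.95 TPM at ZT12, and under DRF 79.0 ± 7.97 TPM at ZT16 and 51.3 ± 5.44 TPM at ZT0 (SD, n = 4). Its peak moved by 11.5 ± 1.20 h, a description only, since Alas1 is singled out here for following Tfrc. In single libraries it followed Tfrc too, with an r of 0.71 between deviations. Next came Hacd1, a dehydratase of long-chain fatty acid synthesis (r = 0.90), Cstf3, a factor of 3′ end cleavage (0.89), Arpc5l, a subunit of the actin-nucleating Arp2/3 complex (0.88), and Fhl2, a LIM-domain protein of heart muscle (0.87). Most unlike it were Sqstm1, the autophagy receptor p62 (-0.94), Ypel3 (-0.94) and Map7, a microtubule-binding protein (-0.92). Sqstm1 had 271 ± 11.04 TPM at ZT12 and 169 ± 26.8 TPM at ZT24 under NRF and 275 ± 18.9 TPM at ZT0 and 164 ± 6.98 TPM at ZT12 under DRF, high where Tfrc was low.

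Beyond the members, 83 genes from 5 lists were tested (96 on the lists, 93 of them in the table). The lists cover iron biology and 14 tested targets of the hypoxia-inducible factors (HIF), which are counted among the listed iron genes throughout. A different rhythm by the clock was found in 32 of the 83 (38.6%, beside 27.7% of all genes). Of the 83, 34 (41%) were rhythmic under NRF and 30 (36.1%) under DRF, beside 37.4% and 32.6% of all genes. The median absolute shift over the 83 genes was 5.56 h, against 4.93 h over all genes tested. Of the 32, 19 were in the inverted class, 11 intermediate and 2 locked, where 46.1% of all genes with a different rhythm were inverted. These classes use fitted shifts, also where the cosine was not called under NRF, DRF or both. The 2 locked genes, Bmp6 and Hif1a, had no DRF rhythm called (limma adjusted p = 0.778 and 0.954). Among the inverted, Fth1, Ncoa4, Tmem14c, Hscb and Pdk1 were rhythmic under neither regimen by this test. The count of 32 moved with the libraries: it was 13 without replicate 3 and 16 without replicate 2.

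Of 19 tested genes of iron uptake, export and storage, 8 had a different rhythm (42.1%, beside 27.7% of all genes). Steap3, the endosomal reductase that acts with the transferrin receptor, was in the intermediate class: it had 21.6 ± 0.759 TPM at ZT12 and 16.9 ± 1.41 TPM at ZT4 under NRF and 20.2 ± 0.770 TPM at ZT8 and 14.6 ± 1.40 TPM at ZT24 under DRF, a shift of 5.26 ± 1.09 h (limma adjusted p = 0.00144). Slc39a14, the transporter ZIP14 for iron not bound to transferrin, was intermediate as well, with a shift of 5.32 ± 1.29 h and 17.1 ± 0.767 TPM at ZT16 and 11.7 ± 0.258 TPM at ZT4 under NRF. Mcoln1, a lysosomal cation channel, was inverted with 10.4 ± 1.86 h, at 8.79 ± 0.733 TPM at ZT12 and 6.95 ± 0.792 TPM at ZT24 under NRF and 7.93 ± 0.220 TPM at ZT24 and 6.95 ± 0.567 TPM at ZT12 under DRF. Cp, for ceruloplasmin, the ferroxidase that acts with ferroportin, had a DRF peak close to that of Slc40a1, at ZT23.9 ± 0.894 h and 29.4 ± 1.73 TPM at ZT24 and 22.6 ± 2.14 TPM at ZT12 under DRF (difference in rhythm, adjusted p = 0.00830), and no rhythm was detected for it under NRF (adjusted p = 0.418). Hamp, which encodes hepcidin, the hormone that removes ferroportin from the cell surface, averaged 10.05 TPM with no rhythm detected under either regimen (adjusted p = 0.274 and 0.477).

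In the list of hepcidin and IRP control, 6 of 11 genes differed (54.5%, beside 27.7% of all genes). Ciapin1, of cytosolic iron-sulfur cluster assembly, moved by 11.9 ± 1.10 h, with NRF levels of 19.5 ± 2.23 TPM at ZT16 and 11.3 ± 1.59 TPM at ZT12 and DRF levels of 17.4 ± 4.18 TPM at ZT4 and 11.2 ± 1.24 TPM at ZT0, the extremes standing at neighbouring times in each. Ciao1, which places such clusters into target proteins, moved by 8.32 ± 1.51 h. Bmp6, the ligand that drives hepcidin in liver, had an amplitude of 0.35 ± 0.048 under NRF against 0.051 ± 0.062 under DRF (difference in rhythm, limma adjusted p = 0.00904), too little for a DRF peak time. Skp1a, a subunit of the ligase complex that removes IRP2, had a fitted shift of 8.44 ± 1.78 h with an amplitude of 0.081 ± 0.023 under DRF, while its NRF rhythm did not pass (adjusted p = 0.136).

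Among genes of heme synthesis, transport and breakdown, 8 of 22 differed (36.4%, beside 27.7% of all genes). Cpox, a later enzyme of the pathway than Alas1, was high at other times and in the intermediate class: it had 20.01 ± 2.17 TPM at ZT4 and 13.6 ± 0.777 TPM at ZT16 under NRF and 20.9 ± 0.646 TPM at ZT24 and 13.7 ± 1.19 TPM at ZT12 under DRF, a shift of 4.77 ± 0.949 h. Flvcr2, a heme and choline transporter, moved by 8.04 ± 1.13 h. Bach1, the heme-sensing repressor of Hmox1, moved by 7.98 ± 1.14 h, with 18.7 ± 2.30 TPM at ZT12 and 13.2 ± 1.55 TPM at ZT20 under NRF and 18.0 ± 1.75 TPM at ZT20 and 13.2 ± 0.577 TPM at ZT4 under DRF (limma adjusted p = 2.31e-05). In iron-sulfur cluster assembly 4 of 17 differed (23.5%, the lowest share of the 5 lists), named Iba57, Glrx5, Hscb and Bola3. Iba57, of the late mitochondrial step, was the clearest, at 15.5 ± 1.79 TPM at ZT8 and 10.2 ± 0.910 TPM at ZT20 under NRF and 15.1 ± 0.564 TPM at ZT0 and 9.19 ± 0.934 TPM at ZT16 under DRF, a shift of 7.77 ± 0.788 h (limma adjusted p = 2.78e-09).

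Tfrc is also a known target of HIF. Of the 14 tested HIF target genes, 6 had a different rhythm (42.9%, beside 27.7% of all genes), and a link to Tfrc was not tested. Egln3, an oxygen-sensing hydroxylase that acts on HIF, had NRF levels of 140.3 ± 10.6 TPM at ZT20 and 45.2 ± 4.33 TPM at ZT12 and DRF levels of 97.1 ± 8.86 TPM at ZT16 and 45.0 ± 3.25 TPM at ZT0, and its peak moved by 8.22 ± 1.10 h (limma adjusted p = 3.24e-08). P4ha1, a collagen prolyl hydroxylase, moved by 4.73 ± 1.12 h. Bnip3, a mitophagy receptor, had an amplitude of 0.28 ± 0.044 under DRF and 0.017 ± 0.055 under NRF, where its rhythm did not pass (adjusted p = 0.964). Pdk1, a kinase that blocks pyruvate oxidation, had amplitudes of 0.051 ± 0.025 under NRF and 0.076 ± 0.026 under DRF, and neither rhythm passed (adjusted p = 0.221 and 0.0614), so no shift is given. Counted from the feeding phase, 8 of the 14 differed, where 41.5% of all genes did.

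**Figure D4:**
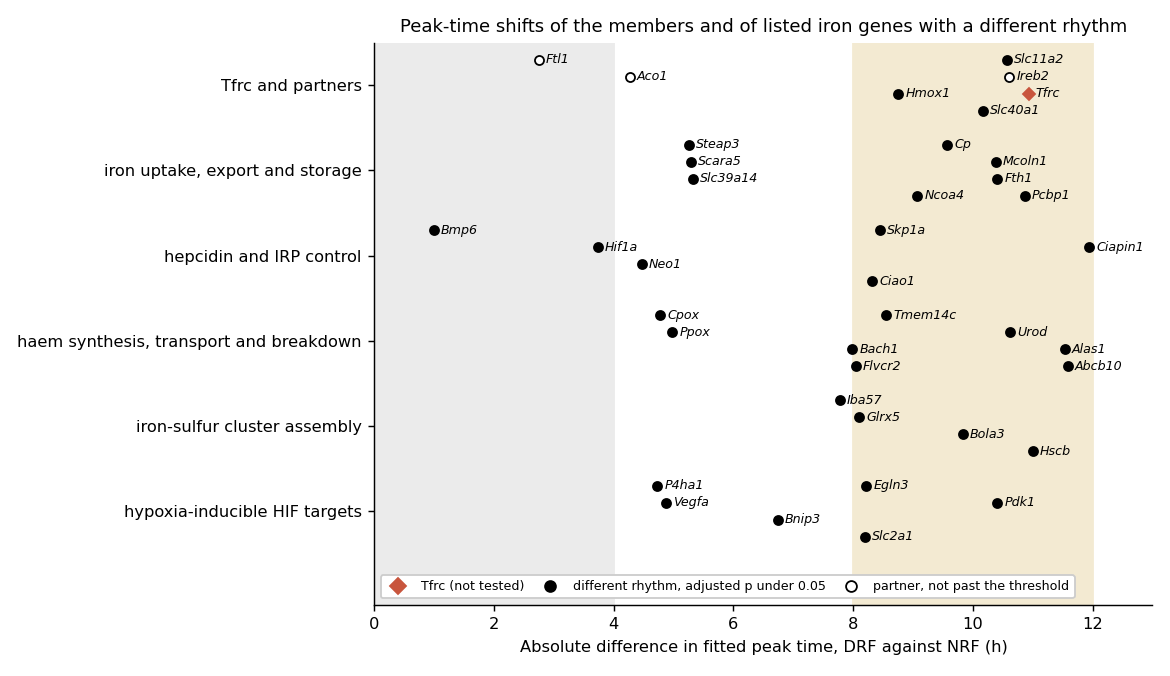
Absolute difference in fitted peak time between DRF and NRF (h) for Tfrc and its partners and, by list, for the 32 listed iron genes with a different rhythm, with the phase-locked range (0 to 4 h) in grey and the phase-inverted range (8 to 12 h) in yellow. Of the 32 genes, 19 lie in the inverted range, 11 between the ranges and 2 in the locked range, and open circles mark partners without a detected difference. Points are fitted shifts, also where the cosine was not called under NRF, DRF or both, as for Bmp6, Hif1a and Pdk1.

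Over the whole day, the level of 2 partners was lower under DRF. Slc11a2 averaged 9.60 ± 1.22 TPM under DRF and 10.6 ± 1.05 TPM under NRF over 28 libraries each (SD), a difference of -0.10 ± 0.033 on the log2 scale (limma adjusted p = 0.0189). Aco1 averaged 19.5 ± 1.51 and 20.8 ± 1.83 TPM, a difference of -0.082 ± 0.031 (adjusted p = 0.0446). This count depends on how libraries are scaled. In TPM 25.9% of all genes had a different mean level, 24.2% lower under DRF and 1.7% higher. Of these calls 93.4% were lower, and the median difference over all genes was -0.051 on the log2 scale. After rescaling by the median of gene ratios 57.6% of the calls were lower, and neither Slc11a2 (adjusted p = 0.276) nor Aco1 (0.563) passed. In TPM the Slc11a2 call was also lost without replicate 2 (adjusted p = 0.186), replicate 3 (0.0617), ZT0 (0.0501), ZT8 (0.178) or ZT16 (0.0743), and the Aco1 call without any one of the 4 replicates (0.0568 to 0.167). In the iron lists, 14 of 83 genes were lower and 0 higher in TPM, against 4 lower and 7 higher after rescaling. Slc40a1 (0.031, adjusted p = 0.625), Ftl1 (-0.088, 0.367), Ireb2 (-0.019, 0.671) and Hmox1 (-0.062, 0.562) did not pass in TPM. Tfrc averaged 27.0 ± 13.8 TPM under DRF and 36.2 ± 17.6 TPM under NRF. These TPM averages over 28 libraries count ZT0 and ZT24, the same clock time, separately. At both times Tfrc and Slc11a2 were lower under DRF, which widens the gap between their averages. The difference of Tfrc fitted together with the daily course, a description only, was -0.20 on the log2 scale.

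Markers of some other cells in the heart had lower mean levels under DRF as well, and those of others were not called. Of 10 macrophage markers 6 were lower under DRF in TPM and 0 higher, of 6 endothelial markers 5 and 0, and of 6 fibroblast markers 4 and 0. Of all genes 24.2% were lower and 1.7% higher in TPM. Calls of a lower level depend on how libraries are scaled, as given above, and the marker counts were not taken after rescaling. Among 8 cardiomyocyte markers 1 was lower and 1 higher. Of 9 tested erythroid markers 0 were called lower and 0 higher, with a median difference of 0.072 on the log2 scale, and of 6 adipocyte markers 0 and 0, with a median of 0.28. At an unadjusted limma p under 0.05 these numbered 0 erythroid and 1 adipocyte markers, in either direction. The medians of the macrophage, endothelial and fibroblast markers were -0.17, -0.14 and -0.22. The summed macrophage markers had 815, 1042 and 1377 TPM under DRF and 684, 1229 and 1528 TPM under NRF (lowest, median and highest of 28). No marker of these sets was at 0 in every library, and their part in the mean level of Slc11a2 and Aco1 was not tested beyond the fit that follows. With the erythroid and macrophage sums regressed out, the difference was -0.095 for Slc11a2 (limma adjusted p = 0.0415) and -0.045 for Aco1 (adjusted p = 0.292). Red cell precursors carry much transferrin receptor, so the erythroid markers were read beside Tfrc. Their sum had 1878, 7222 and 66944 TPM under DRF and 1688, 7084 and 42665 TPM under NRF (lowest, median and highest of 28), a wide spread within groups. Deviations of Tfrc from its group means had an r of -0.23 with this sum, 0.54 with the cardiomyocyte sum and -0.41 with the adipocyte sum. With the erythroid and macrophage sums regressed out the shift of Tfrc was 10.7 h, a description only. The cardiomyocyte and adipocyte sums were not regressed out, and the part of cell content in the course of Tfrc was not tested.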

How the data were processed

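PolyA RNA of mouse heart was sequenced in 56 libraries. The submitters' processing notes name HISAT2 2.0.5, featureCounts 1.5.0-p3 and the mm10 genome. The annotation, the use of strand and the treatment of reads that fit several places are not given in the sources used here, and no molecular identifiers are named. The authors called the deposited values TPM, and the tests had been planned for TPM. They were instead log2(1 + scaled reads) divided by exon length and multiplied by a constant per library, so the deposited values are in no usual unit. Whole reads were recovered from their steps (99.9996% of 1197150 values lay within 0.1 of a whole read) with the exon lengths of GENCODE M21, which held 22852 of the 22864 genes. Lengths were as annotated for 22012 genes, found by search for 831, Fth1 among them, and not testable for 21 abundant genes. Linear TPM was then recomputed.

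The 13864 genes that averaged 1 TPM or more were tested with limma 3.58.1 in R 4.3.3 on log2(TPM + 1), with a trended prior, and every p was adjusted by Benjamini-Hochberg over all of them, so each adjusted p here is limma's. A 24 h cosine stood in for the study's rhythm tool. Its terms were tested within a regimen (28 libraries), between regimens, and between regimens after moving NRF by 12 h. Mean levels were tested with ZT as a factor, and single times in a model of 14 group means. The scripts were tested on simulated data.

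All 7 members are named, with at most 4 genes per list (those past the test of a different rhythm with the smallest p) and the 5 genes most like Tfrc and the 3 least like it. Hamp was named after its values were seen. The members and lists were chosen with earlier results of these data known. Replicate numbers did not pair the libraries: of 28 pairs with the same number and ZT, 1 had deviations correlated over 0.1, with a median r of -0.0317.

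The alternatives tried were a pseudocount of 0.1, no filter, an adjusted p under 0.01, rescaling by the median of gene ratios, limma-voom on the recovered reads, the deposited values, time means, a replicate block, and leaving out each replicate, time or library. Marker sums regressed out, 4 outlying libraries left out, and ZT0 exchanged for or pooled with ZT24 in the count from the feeding phase were added after seeing the data.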

Additional observations from a re-analysis of the deposited data

Results flagged for a closer look

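Among 98 groups of 4 libraries, 14 for each member, 4 held a library that stood apart from the other 3 by Dixon's test, where chance gives 1 in 20, or 4.9. Tfrc had 81.8 TPM in NRF replicate 3 at ZT0 and 42.8 to 47.2 TPM in the rest of that group. Slc40a1 had 11.3 TPM in NRF replicate 4 at ZT8 against 7.46 to 7.85 TPM. Ftl1 had 497 TPM in DRF replicate 3 at ZT0 against 336 to 346 TPM, and Aco1 had 22.8 TPM in NRF replicate 2 at ZT24 against 19.7 to 19.99 TPM.

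The rhythm of 3 partners differed between DRF and NRF by limma's test of the interaction of regimen and time, with absolute shifts of 10.2 h for Slc40a1, 10.6 h for Slc11a2 and 8.76 h for Hmox1.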

How the results depend on the processing

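Of the counts over the 6 partners, 3 had a different rhythm by the clock in TPM, and the counts below moved. NRF rhythms numbered 3, and 1 under time means (1 to 3 without a replicate). Rhythms that differed from the feeding phase numbered 2, and 1 at an adjusted p under 0.01, with no filter, or without ZT0, ZT12, ZT20 or ZT24 (1 to 2 without a replicate). A different mean level was called for 2 partners. It was called for 0 at an adjusted p under 0.01, after rescaling by the median of gene ratios, in the deposited values, or without ZT0, ZT8 or ZT16. It was called for 1 with no filter, with limma-voom, without ZT12, ZT20 or ZT24, with marker sums regressed out or with outlying libraries left out (0 to 1 without a replicate). Of the 83 listed iron genes, 32 differed in rhythm, and 16 at an adjusted p under 0.01, 17 without ZT12 and 20 without ZT20 (13 to 26 without a replicate). A different mean level was found in 14 of them, and in 7 at an adjusted p under 0.01 or without ZT8, 5 in the deposited values, and 9 without ZT0 or with outlying libraries left out (6 to 14 without a replicate). No difference called for a single partner, at a single ZT or in mean level, changed sign in an alternative run. The signs of other differences were not followed, apart from those of Slc40a1 at the start and end of the feeding phase, which also kept theirs. The mean-level calls of the listed iron genes did turn, from 14 lower and 0 higher in TPM to 4 lower and 7 higher after rescaling by the median of gene ratios, and the shift of Hmox1 ranged from 4.26 to 11.98 h. Leaving out samples or time points also lowers what the tests can call, and for the other changes the cause was not tested.

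With the replicate number as a replicate block, 3 partners were rhythmic under NRF, 2 under DRF, 3 differed by the clock, 2 from the feeding phase and 2 in mean level, and 13 listed iron genes differed in mean level. The block changed no call of a member. Over all genes, a different rhythm was called for 3834, and for 2224 at an adjusted p under 0.01, 2241 without replicate 2, 1839 without replicate 3 and 2404 without ZT12. The least covered member value was 398 reads, and what limited the calls was not tested.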
